A study of Mus musculus with 6 samples.

Results

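The genes of cholesterol and fatty acid synthesis were read in MC3T3-E1 osteoblasts (OBs) with and without ascorbic acid (AA). The set, chosen by the place of each gene in the pathways, holds 36 genes, of which 35 had at least 1 probe set annotated to them alone, among 18193 genes read on the array. They are 18 sterol synthesis enzymes (17 measured), 6 regulators and transporters of the sterol pathway, and 12 genes of fatty acid synthesis, elongation and desaturation. Acat2 was the member with no probe set named for it here. MC3T3-E1 is a mouse calvarial pre-osteoblastic line, used as subclone 4, so every culture descends from 1 clone. All cultures were grown in α-MEM with heat-inactivated FBS, so serum lipid was supplied to both groups. The 3 control cultures were left untreated for 5 days, and the 3 AA cultures received AA for 5 days (50 µg in the labels, per ml in the methods). Total RNA was read on Affymetrix Mouse Genome 430 2.0 arrays, 1 per culture and 6 in all. The study describes cultures in triplicate in multiwell plates and also triplicate experiments, and the labels do not say which the replicates were, so the p-values may measure only a technical spread between wells. As the cultures were measured in bulk, a change in the makeup of the culture and a change in RNA per cell cannot be told apart.

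The deposited values are linear MAS5 signals, and the trimmed means of the 6 arrays averaged 150. Each gene was read from the probe set of highest mean signal over the 6 arrays, called its brightest. Signals are quoted as deposited, in the order of replicates 1, 2 and 3. Log2 fold changes (log2 FCs, with their SEs) compare AA with control after quantile normalization and come from limma, with the replicate number entered as a block, and a gene rose or fell where its p adjusted over all 45037 probe sets was under 0.05. By that rule 4.07% of all genes were higher in AA and 3.85% lower by their brightest probe set. Among the genes whose mean signal lay above the upper quartile of all probe sets, the shares were 8.03% and 7.96%. The 3′ to 5′ signal ratio of the beta-actin control probe sets, a sign of RNA integrity, was 1.79 on control replicate 3 and 1.35 to 1.45 on the other arrays.

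Cells make cholesterol from acetyl-CoA through mevalonate, farnesyl diphosphate, squalene and lanosterol, and make fatty acids from the same precursor through malonyl-CoA. Both routes are driven by sterol regulatory element-binding proteins (SREBPs), membrane-bound transcription factors. SCAP carries SREBPs from the ER to the Golgi for cleavage, and INSIG proteins hold the SCAP-SREBP complex in the ER when sterol is plentiful. The protein encoded by Srebf2 acts mainly on sterol genes, and the main products of Srebf1 act on fatty acid genes too. On promoters SREBPs usually act together with NF-Y, which binds the CCAAT box, and with Sp1, which binds the GC box.

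Promoter sequence from RefSeq (GRCm38.p6) was matched for 28 of the 35 measured genes. There was no entry for Fdps and Scd1, which rose, or for Sqle, Fdft1, Scd2, Fads1 and Stard4. Shown are the 250 bases before the annotated start of Msmo1 and Cyp51, sterol enzymes that rose, of Hmgcs1, which carries the sterol regulatory element letters, of the regulator Insig1, and of Elovl1, a fatty acid gene that rose. For Elovl1, which has 2 annotated starts, the first is shown, and the window before the second holds no CCAAT. Each is written along the strand of its gene, and capitals mark CCAAT on either strand (ATTGG when it lies on the other) and TCACNCCAC. Msmo1 (chr8:64733579-64733828, minus strand), Cyp51 (chr5:4104698-4104947, minus strand), Hmgcs1 (chr13:119690101-119690350, plus strand), Insig1 (chr5:28071162-28071411, plus strand) and Elovl1 (chr4:118427843-118428092, plus strand) read as follows.
Msmo1: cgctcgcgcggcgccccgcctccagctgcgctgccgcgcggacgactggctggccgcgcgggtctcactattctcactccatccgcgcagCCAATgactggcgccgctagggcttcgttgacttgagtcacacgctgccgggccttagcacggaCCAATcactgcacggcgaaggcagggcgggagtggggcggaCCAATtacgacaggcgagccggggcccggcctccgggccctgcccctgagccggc
Cyp51: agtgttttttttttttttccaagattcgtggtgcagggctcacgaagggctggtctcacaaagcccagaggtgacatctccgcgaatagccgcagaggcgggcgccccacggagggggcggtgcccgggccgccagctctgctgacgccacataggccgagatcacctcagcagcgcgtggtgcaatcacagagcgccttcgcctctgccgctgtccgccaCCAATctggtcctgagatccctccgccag
Hmgcs1: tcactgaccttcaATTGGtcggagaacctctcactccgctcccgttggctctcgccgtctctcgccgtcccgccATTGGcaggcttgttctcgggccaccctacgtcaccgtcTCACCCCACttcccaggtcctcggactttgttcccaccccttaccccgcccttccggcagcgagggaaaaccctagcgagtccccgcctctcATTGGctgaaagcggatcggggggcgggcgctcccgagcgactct
Insig1: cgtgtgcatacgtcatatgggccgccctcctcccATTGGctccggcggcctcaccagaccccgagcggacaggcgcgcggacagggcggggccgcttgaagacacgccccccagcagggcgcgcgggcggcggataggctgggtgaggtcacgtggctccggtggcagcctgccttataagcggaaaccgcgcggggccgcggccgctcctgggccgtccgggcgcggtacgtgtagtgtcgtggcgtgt
Elovl1: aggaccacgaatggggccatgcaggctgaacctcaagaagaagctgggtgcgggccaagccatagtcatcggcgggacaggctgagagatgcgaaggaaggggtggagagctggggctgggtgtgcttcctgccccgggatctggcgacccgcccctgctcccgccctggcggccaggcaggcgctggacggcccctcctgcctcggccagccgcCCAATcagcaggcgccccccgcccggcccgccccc

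CCAAT, searched on both strands, was found before a start of all 14 sterol synthesis enzymes with a promoter entry, among them enzymes that did not pass the test. It was found for 4 of 5 regulators and 5 of 9 fatty acid genes. Among all genes with a promoter entry 37.5% held it, as did 33.8% of all promoters. Msmo1 carried it 160, 96 and 55 bases before its start, and Cyp51 once, 29 bases before. The GC box letters GGGCGG stood before 13 of the 14 sterol enzymes, 5 of 5 regulators and 4 of 9 fatty acid genes, against 35.4% of all genes. The letters TCACNCCAC, a form of the sterol regulatory element, were found in Hmgcs1 alone of these 28 genes, 137 bases before its start, and in 1.22% of all genes. The E-box CACGTG stood before 3 sterol enzymes, 2 regulators and 1 fatty acid gene, and in 6.86% of all genes. Such matches describe the sequence and do not show binding, and an absent match concerns only these letters in this window.

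Among the sterol synthesis enzymes, 4 of 17 rose with AA, 13 did not pass and 0 fell. The 4 were Pmvk and Fdps of the mevalonate branch and Cyp51 and Msmo1, which act after lanosterol. At an unadjusted p under 0.05 from limma, 11 were higher and 2 lower. The share of all genes at an unadjusted p was not computed, so such counts, here and below, have no background beside them. Msmo1 held the largest value of the 17, a log2 FC of 0.66, and the median of the list was 0.30, beside -0.02 over all genes. Without the replicate block 1 enzyme, Msmo1, passed, where 3.63% of all genes were higher and 3.67% lower. The methods' paired test called 0 enzymes after adjustment, with 5 higher and 1 lower at its unadjusted p under 0.05. The methods name no such adjustment. After it the paired test called 0 of all 35 measured genes and 0 of the 2 wider pathway lists read below. The share of all genes it called was not computed, so its 0 is no result about these enzymes or the other members.

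**Figure D1:**
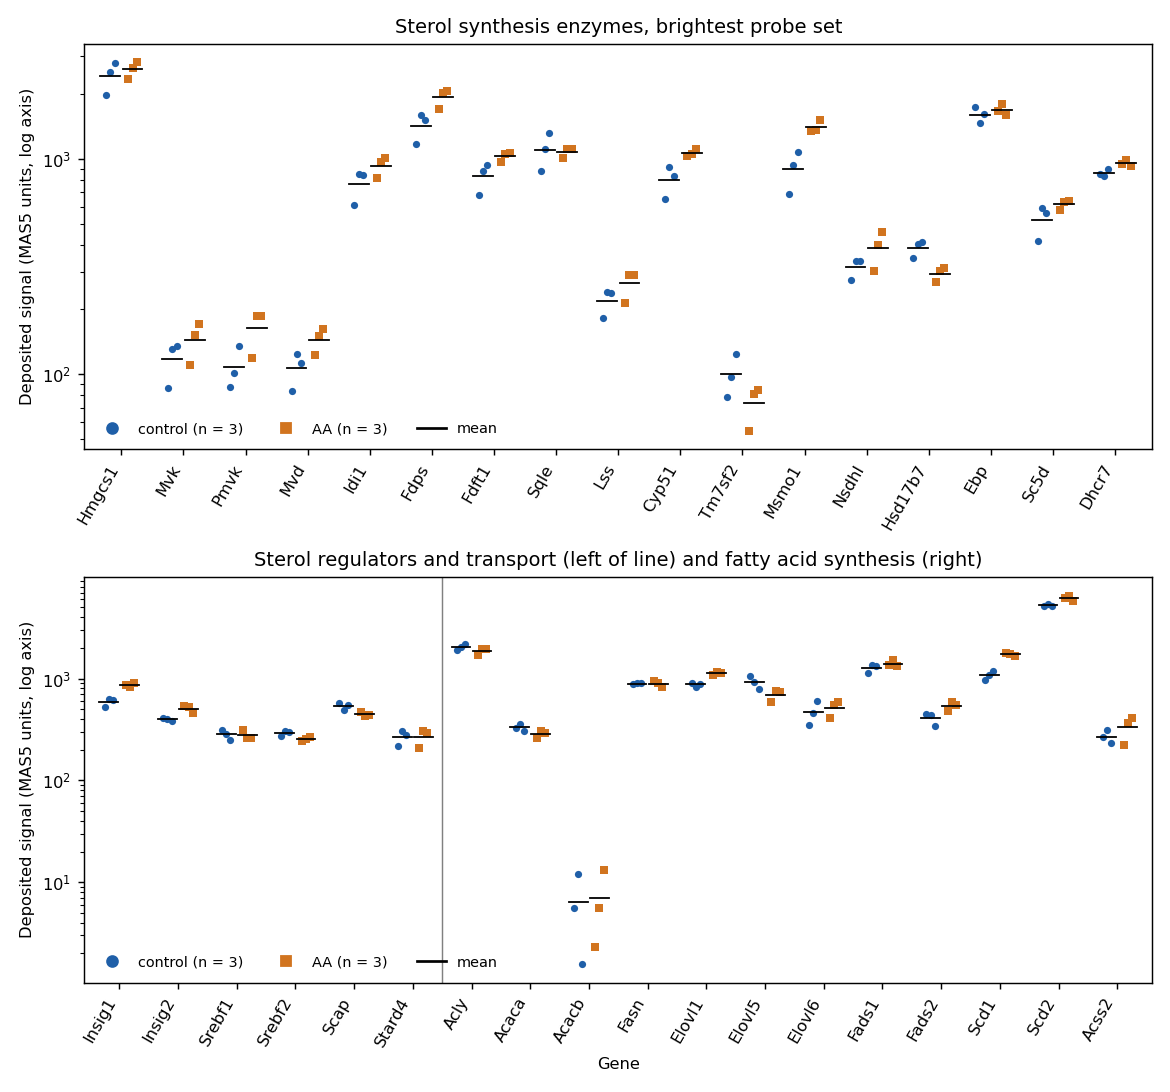
Deposited MAS5 signal (log axis) of the brightest probe set of each measured gene, with 3 control cultures as circles, 3 AA cultures as squares and a short line at each mean. The AA squares of Msmo1, Cyp51, Fdps, Insig1, Scd1 and Elovl1 stand above every control circle, and Acacb lies near the floor of the array.

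Msmo1, the methylsterol monooxygenase that starts the removal of methyl groups from lanosterol derivatives, had signals of 689, 935 and 1082 in control and 1342, 1367 and 1521 in AA cultures. Every AA value lay above every control value, and control replicate 1 was the lowest of the 6. The means were 902 ± 198 (SD, n = 3) and 1410 ± 97.2 (SD, n = 3), a 1.58-fold rise (log2 FC 0.66, SE 0.10, adjusted p = 0.00996). Its adjusted p was 0.0379 without the replicate block and 0.0179 after median centring, so the call held under both.

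Cyp51, the lanosterol demethylase, had control signals of 654, 914 and 833 and AA signals of 1035, 1050 and 1115. The groups did not overlap, and again the lowest array was control replicate 1. Its log2 FC was 0.43 (SE 0.10, adjusted p = 0.0483), which was lost without the replicate block (adjusted p = 0.0810) and held under 2 of 19 alternatives, both of them filters on dim probe sets. Fdps, which makes farnesyl diphosphate, the branch point towards sterols and prenyl groups, had control signals of 1168, 1605 and 1510 and AA signals of 1700, 2028 and 2070. Here too the groups were apart, with a log2 FC of 0.41 (SE 0.08, adjusted p = 0.0218, and 0.132 without the replicate block). Pmvk, which phosphorylates mevalonate phosphate, had control signals of 87.2, 101 and 135 and AA signals of 119, 187 and 187. The groups overlapped, since AA replicate 1 lay below control replicate 3, while AA was higher in each of the 3 numbered pairs (log2 differences of 0.47, 0.96 and 0.45). Its log2 FC was 0.63 (SE 0.14, adjusted p = 0.0415, and 0.155 without the replicate block). Msmo1 passed under 12 of the 19 alternatives, Pmvk under 7 and Fdps under 5.

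Along the mevalonate branch, the enzymes that did not pass had log2 FCs between 0.04 and 0.47. Hmgcs1, which makes HMG-CoA, had 0.04 (adjusted p = 0.827), and its 95% interval ran from -0.12 to 0.21. The mevalonate kinase Mvk had 0.32, the decarboxylase Mvd 0.47 (adjusted p = 0.0690) and the isopentenyl diphosphate isomerase Idi1 0.29 (adjusted p = 0.0919). At the squalene steps, the squalene synthase Fdft1 had control signals of 681, 883 and 942 and AA signals of 965, 1054 and 1071. These groups were apart by a narrow margin, with a log2 FC of 0.31 (adjusted p = 0.0924). Its second probe set rose (0.39, adjusted p = 0.0467). Sqle, the squalene epoxidase, had control signals of 883, 1112 and 1320 and AA signals of 1007, 1109 and 1117. The AA values lay within the control range, and the log2 FC of -0.03 had a 95% interval of -0.24 to 0.19. The lanosterol synthase Lss had 0.30 (adjusted p = 0.130).

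Among the enzymes after lanosterol, Nsdhl (0.32) and the sterol desaturase Sc5d (0.28) had positive values that did not pass, and Dhcr7, the last reductase to cholesterol, had 0.16 (95% interval -0.02 to 0.33). The sterol isomerase Ebp had 0.03 (95% interval -0.16 to 0.23). Negative values were those of Tm7sf2, a sterol reductase (-0.43, adjusted p = 0.158), and of the ketoreductase Hsd17b7 (-0.36, adjusted p = 0.0547). Hsd17b7 had control signals of 345, 401 and 411 and AA signals of 267, 300 and 310. Its AA values all lay below the controls, and the gene passed as lower after median centring (adjusted p = 0.0469) and on the signals as deposited (adjusted p = 0.0400). Taking each gene's brightest probe set, 5 sterol enzymes had all AA signals above all controls and 1 had them below, where 12.6% and 15.3% of all genes did so.

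**Figure D2:**
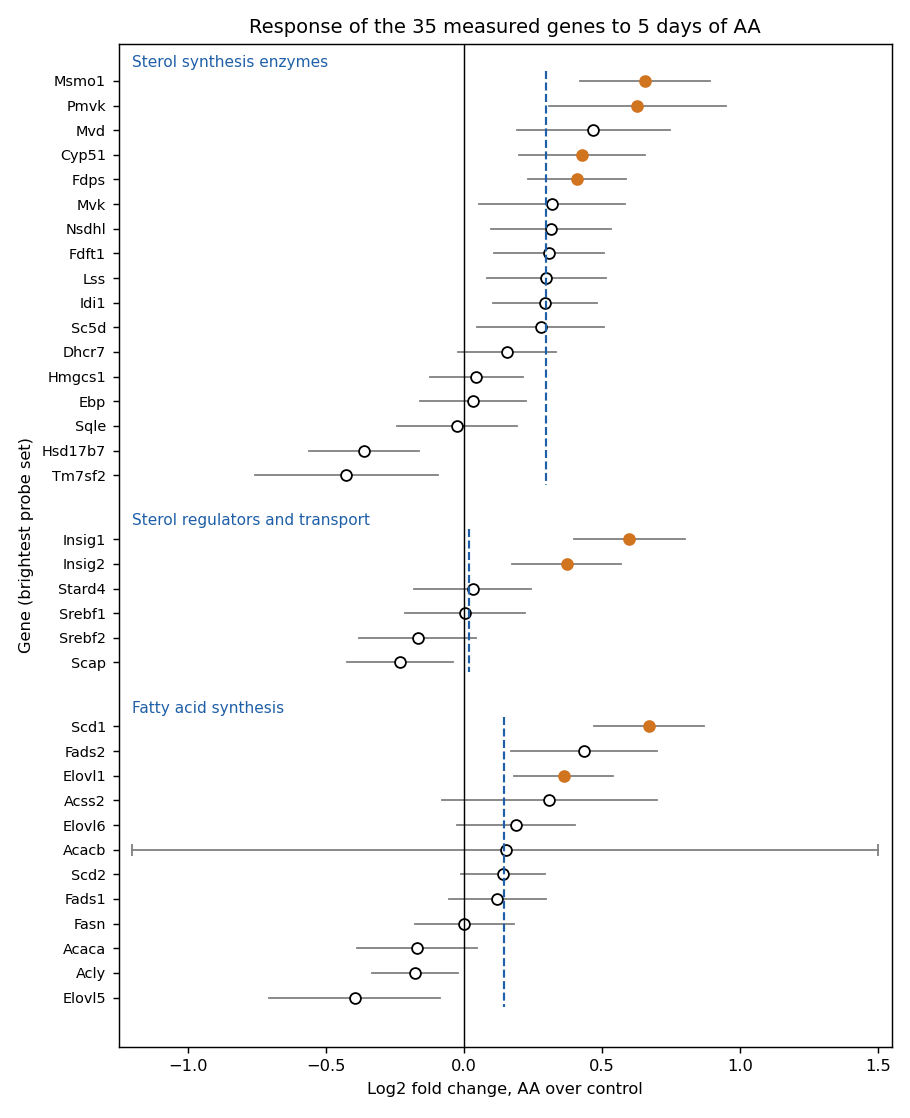
Log2 fold change of the brightest probe set of the 35 measured genes, AA over control, with the 95% interval from limma as a line and the group median as a dashed bar. Filled points passed an adjusted p of 0.05, all of them to the right of 0, and the interval of Acacb, ended by bars, runs beyond the axis.

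The level of the sterol enzymes also followed the replicate number. Of the 17, 15 had their lowest quantile-normalized signal at replicate 1 both among the controls and among the AA cultures, as did 14.2% of all genes and 16.8% of those above the upper quartile of signal. On the signals as deposited the count was again 15, beside 15.1% of all genes, and after median centring it was 11, beside 7.98%. Of the fatty acid genes, 3 of 12 did so. This pattern was noticed in the data and is given as a description. After quantile normalization the median deviation of the sterol enzymes from their own 6-array means was -0.44, 0.00169 and -0.01 (log2) for the controls. With AA it was -0.04, 0.19 and 0.27. AA replicate 1 thus lay below control replicates 2 and 3 on that scale, by narrow margins. After median centring it lay between them (-0.05, beside -0.13 and 0.09). On both scales AA exceeded control within each number. The median log2 difference within numbered pairs was 0.37, 0.24 and 0.28. The labels do not say what cultures with the same number shared.

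**Figure D3:**
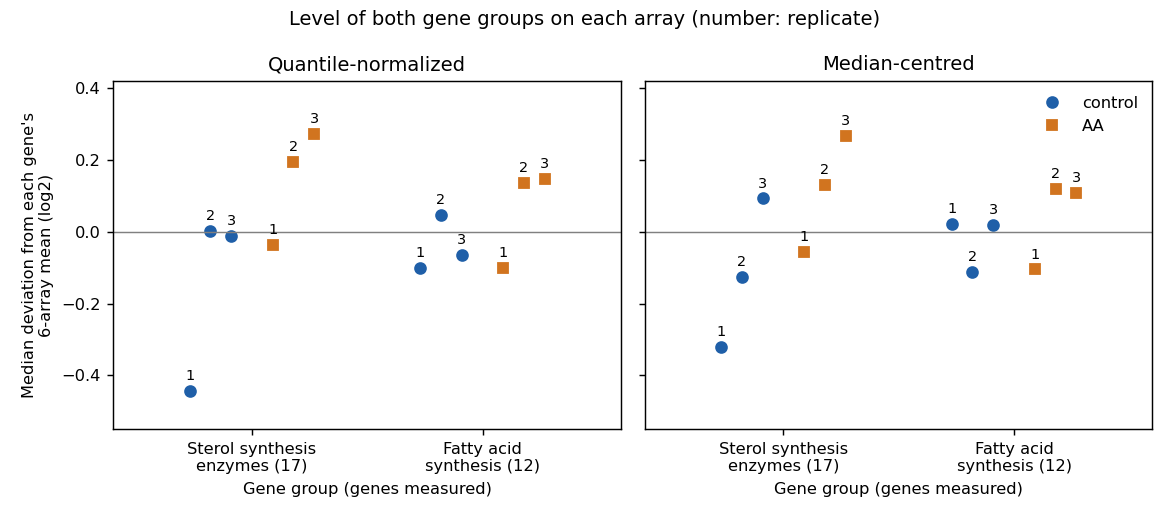
Median deviation (log2) of each gene group from its genes' 6-array means on every array, after quantile normalization (left) and median centring (right), with circles for control, squares for AA and the replicate number above each point. Replicate 1 is lowest in both groups for the sterol enzymes on both scales, with control replicate 1 at -0.44 after quantile normalization.

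Of the 6 regulators and transporters, Insig1 and Insig2 rose and 0 fell, where 4.07% of all genes were higher and 3.85% lower. At an unadjusted p under 0.05 from limma, 2 were higher and 1 lower. After adjustment the methods' paired test called 0 in either direction. Insig1, an ER anchor of SCAP and itself a known SREBP target, had control signals of 522, 625 and 611 and AA signals of 867, 835 and 915. The lowest AA array stood well above the highest control, and replicate 1 was not the lowest AA array. The means were 586 ± 56.0 (SD, n = 3) and 873 ± 40.2 (SD, n = 3), a 1.51-fold rise (log2 FC 0.60, SE 0.09, adjusted p = 0.00768). Without the replicate block its adjusted p was 0.00740, and it passed under 17 of 19 alternatives, all but the methods' paired test and moderation without the variance trend.

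Insig2, the second ER anchor, had control signals of 410, 401 and 385 and AA signals of 533, 523 and 455 by its brightest probe set. The groups were apart, but the call was marginal (log2 FC 0.37, SE 0.09, adjusted p = 0.0468, and 0.0550 without the replicate block). After median centring it did not pass (adjusted p = 0.253). Its second probe set, with control signals of 217, 191 and 152 and AA signals of 333, 268 and 245, had a larger log2 FC of 0.63 (adjusted p = 0.00979), and passed after median centring (adjusted p = 0.0224) but not without the replicate block (adjusted p = 0.0596).

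Srebf1 had control signals of 315, 288 and 251 and AA signals of 312, 260 and 263. The groups overlapped throughout, and the log2 FC of 0.0030 had a 95% interval of -0.21 to 0.22 (adjusted p = 0.994). Srebf2 depended on the probe set. The brightest read 274, 308 and 298 in control and 243, 254 and 269 in AA cultures (log2 FC -0.17, adjusted p = 0.398), while the second read 191, 208 and 151 in control and 284, 241 and 271 in AA cultures. On each of them the groups were apart, but in opposite directions, and the second rose by 0.57 on the log2 scale (adjusted p = 0.0407, and 0.0405 without the replicate block). Scap had control signals of 574, 492 and 545 and AA signals of 468, 432 and 434. All AA values lay below the controls, with a log2 FC of -0.23 that did not pass (adjusted p = 0.183). Stard4, a soluble sterol carrier, had control signals of 219, 307 and 279 and AA signals of 210, 308 and 290, which overlapped (log2 FC 0.03, adjusted p = 0.911).

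Of the 12 fatty acid genes, Scd1 and Elovl1 rose, 0 fell and 10 did not pass. At an unadjusted p under 0.05 from limma, 3 were higher and 2 lower, and after adjustment the methods' paired test called 0, with 2 higher and 1 lower at its unadjusted p under 0.05. Without the replicate block the same genes, Scd1 and Elovl1, passed. Both genes that rose act on finished acyl chains, as do Elovl5, Elovl6, Fads1, Fads2 and Scd2, which did not pass by their brightest probe sets.

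Scd1, the stearoyl-CoA desaturase that makes monounsaturated fatty acids, had control signals of 962, 1097 and 1176 and AA signals of 1792, 1763 and 1650. The lowest AA array was above the highest control by a wide margin. The means were 1078 ± 108 (SD, n = 3) and 1735 ± 75.3 (SD, n = 3), a 1.59-fold rise (log2 FC 0.67, SE 0.09, adjusted p = 0.00452, and 0.00386 without the replicate block). Scd1 passed under 17 of 19 alternatives, losing the call where Insig1 lost it. It was the largest log2 FC of the 35 genes by their brightest probe sets, and its second probe set rose as well (0.59, adjusted p = 0.0358). Elovl1, an elongase of saturated and monounsaturated very long chains, had control signals of 914, 827 and 884 and AA signals of 1088, 1160 and 1131. The spread within each group was small beside the gap between them. Its log2 FC was 0.36 (SE 0.08, adjusted p = 0.0372), and 3 of its 4 probe sets rose. The call of the brightest held under 6 of 19 alternatives and was lost after median centring (adjusted p = 0.236) and with 50 added to every signal (adjusted p = 0.0619).

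At the entry steps, Acly, which makes cytosolic acetyl-CoA from citrate, had control signals of 1908, 2029 and 2201 and AA signals of 1700, 1942 and 1973. The ranges overlapped (log2 FC -0.18, adjusted p = 0.210). Acaca, the acetyl-CoA carboxylase of lipogenesis, had -0.17 (adjusted p = 0.414). Fasn, the fatty acid synthase, had control signals of 880, 902 and 899 and AA signals of 938, 910 and 833. Both group means were 894, and the log2 FC of 0.0012 had a 95% interval of -0.18 to 0.18. Acss2, which makes acetyl-CoA from acetate, had control signals of 265, 309 and 235 and AA signals of 224, 369 and 412, so that AA replicate 1 was the lowest and AA replicate 3 the highest of the 6 (log2 FC 0.31, adjusted p = 0.401). Acacb, the carboxylase that restrains fatty acid oxidation, had signals of 1.57 to 13.2, below the median signal of all probe sets, and it was the only measured member whose brightest probe set had a mean below that median.

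Of the other elongases, Elovl5, which extends polyunsaturated chains, had control signals of 1070, 924 and 782 and AA signals of 590, 759 and 740. The AA values lay below the controls, with a log2 FC of -0.40 that did not pass (adjusted p = 0.159). Its second probe set, with 860, 1038 and 797 in control and 582, 649 and 674 in AA cultures, fell by 0.48 on the log2 scale (adjusted p = 0.0301, and 0.0402 without the replicate block). Elovl6, which extends palmitate, had 0.19 (adjusted p = 0.343). The desaturases of polyunsaturated chains, Fads1 and Fads2, had 0.12 (adjusted p = 0.469) and 0.44 (adjusted p = 0.0739). Fads2 had control signals of 446, 442 and 343 and AA signals of 480, 585 and 554, which did not overlap.

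Scd2, a second stearoyl-CoA desaturase, had control signals of 5113, 5362 and 5194 and AA signals of 6196, 6532 and 5782 by its brightest probe set. The groups were apart, but the log2 FC after quantile normalization was 0.14 (adjusted p = 0.320) and 0.24 on the signals as deposited (adjusted p = 0.195). The second probe set read 343, 359 and 61.5 in control and 489, 617 and 479 in AA cultures. Control replicate 3, the array with the highest actin 3′ to 5′ ratio, stood far below the other controls there. Its log2 FC was 1.44 (SE 0.38, adjusted p = 0.0766), and 0.62 (adjusted p = 0.0393) when control replicate 3 was left out of the fit that had no replicate block. The third probe sets of Acly (299, 302 and 129 in control) and Elovl1 (494, 510 and 357 in control) were also lowest on that array. The part of RNA quality in these values was not tested.

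Set side by side, 4 of 17 sterol enzymes and 2 of 12 fatty acid genes rose, and 0 of either fell. Of all genes, 4.07% were higher and 3.85% lower. Of those above the upper quartile of signal, where most of these members lay, the shares were 8.03% and 7.96%. Without the replicate block the counts were 1 of 17 and 2 of 12, so the order of the pathways by share turned. With the block kept it turned too, as without replicate 2 (1 of 17 and 1 of 12) and after median centring. That order thus depends on the settings. The median log2 FC was 0.30 for the sterol enzymes (range -0.43 to 0.66) and 0.15 for the fatty acid genes (range -0.40 to 0.67). Of the sterol enzymes 14 of 17 had a higher mean in AA, and of the fatty acid genes 9 of 12, beside 8663 of all 18193 genes. In all 3 numbered pairs, 12 sterol enzymes were higher and 2 lower, and 5 fatty acid genes were higher and 3 lower. The share of all genes with the same sign in 3 pairs was not computed. The sterol median exceeded the fatty acid median by 0.25, 0.16 and 0.17 in the numbered pairs, and by 0.15 in the fit. On the signals as deposited this difference was 0.08. Median centring shifts all genes of an array alike, so it gives the same difference by arithmetic. The lists were compared by these counts and medians only, with no test between them. Over all 35 genes, 11 had AA signals above all controls and 4 below, where 12.6% and 15.3% of all genes did so.

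The choice of probe set mattered for several genes. The 35 genes were read by 83 probe sets, 14 of which had a mean below the median of all probe sets. Over the 83, 14 were higher and 1 lower, where 2.71% and 2.5% of all probe sets were. The calls fell on 11 genes, as some genes had more than 1 probe set called. A smaller part of the 83 than of all probe sets lay below the median, so these shares are not like for like. Without the replicate block 7 of the 83 probe sets were higher and 1 lower. Of 21 genes with more than 1 probe set above that median, the sign differed in 7 (Hmgcs1, Cyp51, Hsd17b7, Srebf2, Acly, Fads1 and Acss2) and the call in 6 (Fdft1, Cyp51, Insig2, Srebf2, Elovl1 and Elovl5).

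For Fdps the brightest probe set rose, and the other had control signals of 3.77, 0.193 and 0.157 and AA signals of 0.0937, 0.185 and 0.105. That second probe set sat at the floor of the array, and its log2 FC of -2.07 (SE 1.27, adjusted p = 0.459) rests on control replicate 1. For Cyp51 the other probe sets had log2 FCs of 0.12 and -0.02 (adjusted p = 0.673 and 0.982), so the rise was seen on 1 of 3. For Hsd17b7 the second probe set read 84.9, 125 and 86.2 in control and 111, 120 and 132 in AA cultures (0.33, adjusted p = 0.291), opposite in sign to the brightest, and the third had -0.47 (adjusted p = 0.105). The IDs of the brightest probe sets of Hsd17b7, Hmgcs1, Fdft1, Elovl1 and Elovl5 carry an x, which marks probes that may also match other transcripts. For Hmgcs1, which has 5 probe sets, the log2 FCs ran from -0.08 to 0.43 and none passed.

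**Figure D4:**
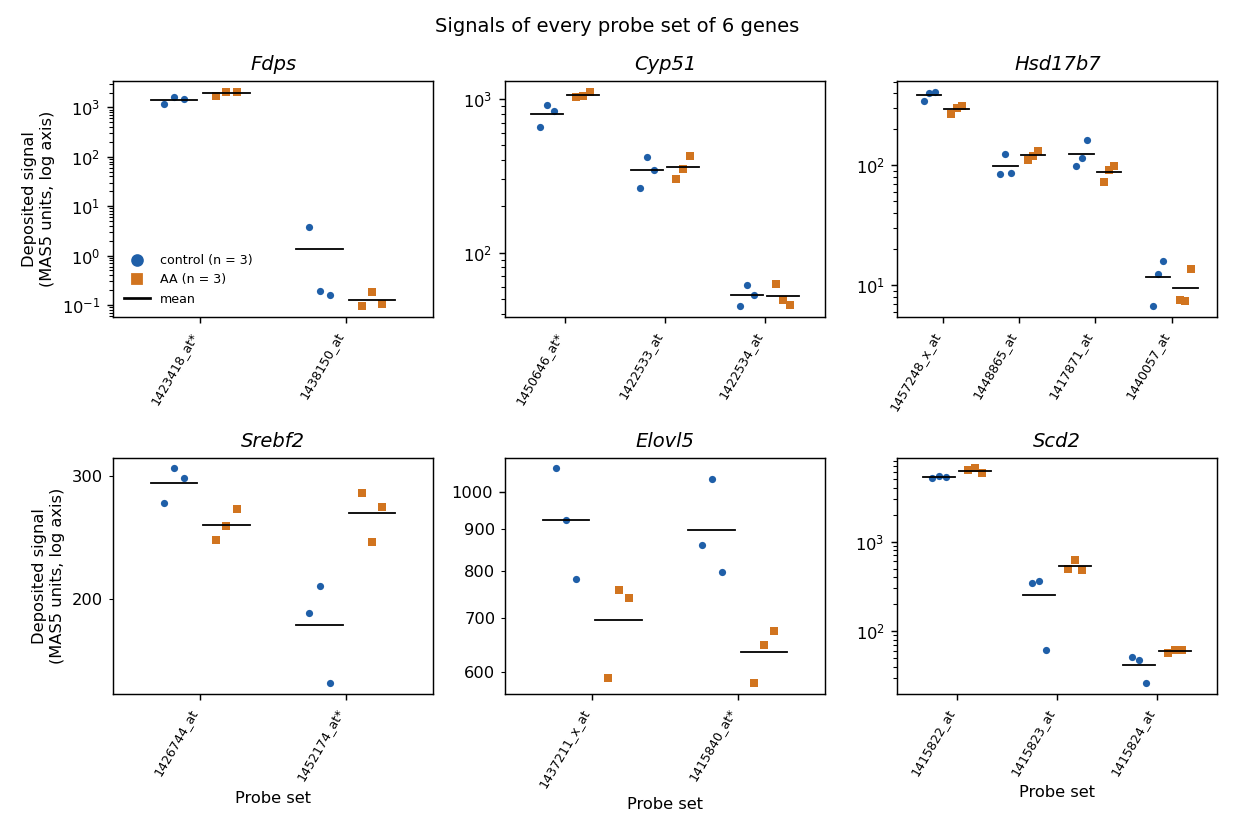
Deposited MAS5 signal (log axes, which differ between panels) of every probe set of Fdps, Cyp51, Hsd17b7, Srebf2, Elovl5 and Scd2, with circles for the 3 control and squares for the 3 AA cultures, short lines at the means and an asterisk after each probe set that passed. The probe sets of Srebf2 move in opposite directions, the second of Fdps lies below 10 on every array, and 1 control circle of the second Scd2 probe set, replicate 3 at 61.5, stands apart.

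Other genes of sterol handling and of fatty acid and glyceride metabolism were taken from lists chosen by function. Of 18 measured sterol handling genes, 1 rose, 1 fell and 16 did not pass. Of all genes 4.07% were higher and 3.85% lower, so these counts are not read as a result about the list. Mylip, a ubiquitin ligase that directs lipoprotein receptors to degradation, had control signals of 1167, 752 and 796 and AA signals of 599, 535 and 481. All AA values lay below the controls (log2 FC -0.71, adjusted p = 0.00674, and 0.0382 without the replicate block). Vldlr, a lipoprotein receptor, had control signals of 1381, 1165 and 1186 and AA signals of 1883, 1441 and 1659, again with no overlap. Its log2 FC was 0.39 (adjusted p = 0.0252), which was lost without the replicate block (adjusted p = 0.0689). Scarb1, the HDL receptor, was chosen after its values were seen because its probe sets disagreed. The brightest had 0.23 (adjusted p = 0.398), while the second read 209, 204 and 211 in control and 378, 350 and 340 in AA cultures and rose by 0.81 on the log2 scale (adjusted p = 0.00316).

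Of 32 measured fatty acid and glyceride genes outside the 12, 1 rose, 3 fell and 28 did not pass. Beside 4.07% and 3.85% of all genes, or 8.03% and 7.96% of those above the upper quartile, these counts too are not read as a result about the list. Elovl7, an elongase of very long chains, had control signals of 56.5, 96.2 and 107 and AA signals of 16.2, 21.6 and 25.8. The highest AA value was under the lowest control value, with a log2 FC of -2.02 (adjusted p = 0.00118), or -0.92 with 50 added to every signal (adjusted p = 0.0150). Gpam, which starts glycerolipid synthesis, had a log2 FC of -0.47 (adjusted p = 0.0222), and Mid1ip1, an activator of acetyl-CoA carboxylase, had -0.38 (adjusted p = 0.0466, and 0.0570 without the replicate block). Me1, the malic enzyme that supplies NADPH, had control signals of 928, 809 and 604 and AA signals of 1506, 1049 and 853. The groups overlapped, and its log2 FC of 0.52 (adjusted p = 0.0122) was lost without the replicate block (adjusted p = 0.226).

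The osteoblast label was checked against its markers. Of 8 measured osteoblast markers 3 rose and 0 fell, and none had a mean below the median of all probe sets. Of 8 measured adipocyte markers 0 passed in either direction in limma, 0 had an unadjusted p under 0.05, and 7 lay below that median. Adipoq, an adipocyte hormone, read 0.270 to 5.05 over the 6 arrays. The summed adipocyte marker signal ran from 59.0 to 81.9 in control and from 75.7 to 87.2 in AA cultures. Of 4 endothelial and 4 myoblast markers 0 passed, with 0 at an unadjusted p under 0.05, and of 5 macrophage markers 1 rose, Csf1r, while 2 were higher at an unadjusted p under 0.05 and 3, Adgre1, Ptprc and Cd68, lay below the median. The other was Cd14, with a mean signal of 62.2 in control and 83.3 in AA cultures, no overlap and an adjusted p of 0.238. The summed macrophage signal was 93.3 to 120 on the control and 171 to 214 on the AA arrays, and its part in the lipid gene values was not tested.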

How the data were processed

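At day 5, 6 arrays were hybridized, 3 for control and 3 for AA-treated cultures. The authors deposited MAS5 intensity, linear and not logged, per the labels with no version given. The trimmed means of the 6 arrays (2% left off at each end) averaged 150, rounded to a whole number. Quantile normalization and GC-RMA, which the methods also describe, had not been applied to these values. No detection calls were used, and precision is limited by the number of arrays.

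Of 45101 probe sets, 64 were array controls and were left out. The remaining 45037 were taken to log2, quantile-normalized and fitted with limma 3.58.1 in R 4.3.3. Paired tests are named in the methods, so the replicate number was a blocking term, and the variance prior followed the mean signal (2 residual and 6.18 prior degrees of freedom). p-values are two-sided and were adjusted over all probe sets (Benjamini-Hochberg). In GEO's platform annotation 34945 probe sets named a single gene, 932 named several, and 9160 had no name. Checking symbols against RefSeq (GRCm38.p6) changed 0 of them. The fit was tested on simulated data.

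Alternatives covered scaling, pseudocount, filters, probe set choice, moderation, the block and left-out cultures. All members are named, and genes of the wider lists by smallest p among those that passed, up to 3 per direction. The members and lists (sterol enzymes, regulators, fatty acid genes, 2 wider pathway lists and 5 marker lists) were chosen with earlier results of these data known.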

Additional observations from a re-analysis of the deposited data

How the results depend on the processing

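The counts were small and moved with most settings. With 4 sterol enzymes and 2 fatty acid genes higher in the fit as reported, the counts were 1 and 1 on the mean of all probe sets of a gene, 1 and 1 after median centring, 0 and 0 by the methods' paired test, 0 and 0 when limma's moderation ignored the variance trend, 2 and 1 at an unadjusted p under 0.01 with a fold of at least 1.5, and 2 and 1 with a pseudocount of 50. On the signals as deposited 3 sterol enzymes (without Cyp51) and 1 fatty acid gene (without Elovl1) were higher. Keeping probe sets above the median made Mvd higher too (5 sterol enzymes), and keeping those above the upper quartile added Fads2 (3 fatty acid genes). A sterol enzyme, Hsd17b7, was lower (1) on the signals as deposited, after median centring, and with probe sets kept above the median or above the upper quartile of signal. The difference between the pathway medians was 0.21 on the mean of all probe sets, against 0.15. It was 0.0822 after median centring or on the signals as deposited, settings that cannot differ in it. Leaving out 1 numbered pair gave 1 to 3 sterol enzymes higher, 1 to 3 fatty acid genes higher, 0 to 1 fatty acid genes lower and a median difference of 0.0885 to 0.22. Without replicate 1 the sterol count was 2, the fatty acid count 3 and the difference 0.0885, without replicate 2 the counts were 1 and 1, and without replicate 3 the fatty acid count was 1 higher and 1 lower (Elovl5).

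Same-numbered cultures had correlated deviations from their group means of 0.19, 0.03 and 0.10 for replicates 1, 2 and 3, over probe sets above the median signal, so the numbers were not shown to pair the cultures. Without the replicate block 1 sterol enzyme and 2 fatty acid genes were higher. Leaving out 1 array as well gave 0 to 1 sterol enzymes higher, 0 to 1 lower, 1 to 2 fatty acid genes higher and a median difference of 0.0758 to 0.23. Without AA replicate 1, 2 or 3 or control replicate 2 the sterol count was 0 and the fatty acid count 1. Without control replicate 1 it was 1 higher and 1 lower (Hsd17b7), and the median difference was 0.0758. Without control replicate 3 the difference was 0.23. Fdps reversed when its probe sets were averaged (log2 fold change -0.83, adjusted p = 0.454), as the dim second probe set then counts equally. Of the 8 genes called in the fit as reported, Scd1 and Insig1 kept the call under 17 of 19 alternatives. Msmo1 kept it under 12, Pmvk under 7, Elovl1 under 6, Fdps and Insig2 under 5 and Cyp51 under 2. Several alternatives, such as leaving out the block, do not alter the fold change, so direction could not turn there. Of all values of single genes under the alternatives, 536 kept direction and side of the threshold, 80 lost the call, 9 gained it and 1 reversed with a call. The 536 include genes called in neither fit. The sign turned in 34 further values that passed in neither fit, over 10 genes. Fasn (7 settings), Srebf1 (6) and Stard4 (5) turned most often, and Acacb ranged furthest (to -1.23). Beyond this construction, the cause was not tested. Values near the floor of the array, such as those of Acacb, cannot show a difference.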
